A study of Mus musculus with 2 samples.

Results

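Mitosis and the G2 phase before it were described here by 49 genes of the 17044 genes measured in single cells of irradiated mouse colon. The genes were chosen by name for their known roles in entering mitosis, building the spindle, holding and separating chromosomes, and dividing the cell. The choice rule uses no measured value, though the list was drawn up with earlier results of these data known, and all 49 were found in the table. They fall into 9 role groups: cyclins with Cdk1 and its Cks partners, mitotic kinases, the chromosomal passenger complex, the anaphase-promoting complex with its substrates, the kinetochore with its checkpoint, kinesin motors, spindle assembly factors, cytokinesis factors, and chromatin and condensation factors.

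All cells came from 1 group of samples: colon epithelium of wild type C57BL/6 mice, taken 2 weeks after irradiation and sequenced as 2 single-cell libraries. The series is titled as a study of radiation proctitis regenerated by transplanted colonoids, which are cultured colon organoids. The labels of the libraries name neither a transplant nor the animals' number, age or sex, and no unirradiated group was analysed here. The values are averages over the cells of 12 clusters drawn by the authors, numbered 0 to 11, with both libraries pooled, so no cluster has a replicate and no test between clusters was possible. The clusters were also drawn from the expression of these same cells, so a gene's height in a cluster is a description of that cluster.

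In a dividing cell, Cdk1 bound to cyclins A and B drives entry into mitosis, and the anaphase-promoting complex ends it by marking securin and cyclin B for destruction. The RNAs of these genes are made late in the cycle and are low in resting cells. In the colon, division takes place in the lower crypt, among stem cells and their transit-amplifying progeny, while goblet cells and surface colonocytes have left the cycle. Promoters of such genes often carry a CHR element, bound by MuvB complexes that repress them at rest and activate them with B-Myb and FoxM1 late in the cycle, next to CCAAT boxes bound by NF-Y.

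Values are mean transcript counts (unique molecular identifiers, UMIs) per 10000 UMIs of a cell, averaged over the cells of a cluster. The arithmetic of the low values gave 3082 cells in all, from 482 in cluster 0 to 31 in cluster 10 and 19 in cluster 11. The total UMIs of 2287 cells could be read, with a median of 12288. Clusters 5 and 6 were shallow, with medians of 1430 and 2505, and cluster 7 was the deepest, with 19522. Each value below carries an exact Poisson 95% interval made from the UMIs behind it, which covers counting error only and is too narrow where many cells' totals could not be read. A gene listed at 0 could still have a level of up to 0.0061 in cluster 0 and up to 0.174 in cluster 11, the limits that a count of 0 (3 UMIs) allows.

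Cluster 7, with 247 cells, held all 12 S phase markers at their highest level, each over 2-fold the mean elsewhere, and is called proliferating-like here. Its cells were epithelial by Epcam, at 28.3, while the pan-leukocyte gene Ptprc was at 0.074 against 3.69 in cluster 5. Cluster 5 was neutrophil-like (8 of 8 neutrophil markers highest there), cluster 0 goblet-like (8 of 8) and cluster 11 enteroendocrine-like (7 of 7). Cluster 10 held the highest level of all 8 macrophage, all 6 measured T and NK cell and 4 of 6 mast cell markers. Cluster 6 held that of 3 tuft, 3 B and plasma cell and 3 crypt stem cell markers. Both clusters mix markers of several cell types and are called by number.

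The promoters of the members are shown first, since the genes were gathered by function and their shared sequence was not part of the choice. RefSeq promoters of build GRCm38.p6, from 250 bases before to 50 bases after each start site, were matched by symbol for 41 of the 49 members. Ccna2, Aurkb, Kif20a, Tpx2, Spc24, Incenp, Smc4 and Stmn1 were not matched. The CHR was searched as TTTGAA or TTCGAA and the CCAAT box as CCAAT, on both strands. The 6 sequences printed next belong to the members with the highest level in their role group in cluster 7, the cluster where the genes peaked, that were matched and carry the CHR. CHR and CCAAT letters are in capitals, on whichever strand they were found, and each sequence reads 5′ to 3′ along the gene.
Hmgb2: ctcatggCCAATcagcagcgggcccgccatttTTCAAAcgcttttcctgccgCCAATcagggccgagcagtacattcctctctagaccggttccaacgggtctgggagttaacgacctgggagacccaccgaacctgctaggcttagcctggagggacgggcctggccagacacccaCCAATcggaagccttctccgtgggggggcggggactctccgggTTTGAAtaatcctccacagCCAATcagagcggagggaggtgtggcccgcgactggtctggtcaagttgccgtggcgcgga
Ube2c: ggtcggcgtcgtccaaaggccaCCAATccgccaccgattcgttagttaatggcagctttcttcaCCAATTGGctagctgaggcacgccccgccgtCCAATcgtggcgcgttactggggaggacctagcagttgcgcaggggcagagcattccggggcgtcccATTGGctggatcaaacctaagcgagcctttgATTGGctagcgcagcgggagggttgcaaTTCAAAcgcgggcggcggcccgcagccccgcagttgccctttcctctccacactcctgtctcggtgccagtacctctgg
Cenpa: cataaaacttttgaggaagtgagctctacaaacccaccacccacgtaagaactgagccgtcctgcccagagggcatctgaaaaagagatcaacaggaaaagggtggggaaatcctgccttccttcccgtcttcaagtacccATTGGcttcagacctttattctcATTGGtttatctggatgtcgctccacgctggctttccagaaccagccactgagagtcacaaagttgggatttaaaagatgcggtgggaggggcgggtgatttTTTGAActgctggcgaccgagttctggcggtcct
Plk1: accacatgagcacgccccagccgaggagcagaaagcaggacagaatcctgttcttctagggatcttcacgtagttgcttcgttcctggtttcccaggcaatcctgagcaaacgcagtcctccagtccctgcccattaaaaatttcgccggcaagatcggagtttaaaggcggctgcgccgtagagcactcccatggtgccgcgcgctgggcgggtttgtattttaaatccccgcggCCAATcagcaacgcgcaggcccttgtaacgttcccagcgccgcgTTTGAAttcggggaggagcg
Racgap1: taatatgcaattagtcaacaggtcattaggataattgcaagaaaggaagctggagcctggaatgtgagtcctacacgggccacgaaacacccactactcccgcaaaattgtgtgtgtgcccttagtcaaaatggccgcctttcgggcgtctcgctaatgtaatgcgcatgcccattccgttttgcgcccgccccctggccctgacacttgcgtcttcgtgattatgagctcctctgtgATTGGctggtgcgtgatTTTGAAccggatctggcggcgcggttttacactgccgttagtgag
Kif23: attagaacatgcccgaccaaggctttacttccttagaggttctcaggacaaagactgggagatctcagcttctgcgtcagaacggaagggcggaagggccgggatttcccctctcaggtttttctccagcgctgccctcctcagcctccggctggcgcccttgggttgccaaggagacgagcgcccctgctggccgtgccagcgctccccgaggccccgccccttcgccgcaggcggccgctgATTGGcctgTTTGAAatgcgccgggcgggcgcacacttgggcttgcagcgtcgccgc
Hmgb2 (a high mobility group protein that binds DNA) is at chr8:57511593-57511892 (plus strand), Ube2c (the ubiquitin-conjugating enzyme of the anaphase-promoting complex) at chr2:164769679-164769978 (plus strand) and Cenpa (the centromeric histone) at chr5:30666636-30666935 (plus strand). Plk1 (a mitotic kinase) is at chr7:122159185-122159484 (plus strand), Racgap1 (a cytokinesis factor) at chr15:99651607-99651906 (minus strand) and Kif23 (the kinesin of the central spindle) at chr9:61946750-61947049 (minus strand). Counted from the first transcribed base as 1, the CHR starts at 31 in Plk1, 3 in Kif23, 6 in Racgap1 and 17 in Cenpa, and in each of Plk1, Racgap1 and Kif23 a CCAAT box lies within 14 bases before the start site.

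Counted by gene, with a match in any of a gene's promoters, the CHR was present for 32 of 41 members (78.0%), against 21.7% of all 27025 genes of the table. In the 100 bases around the start site it was present for 29 (70.7%), against 6.12% of all genes. A CCAAT box was present for 30 of 41 (73.2%), against 41.1% of all genes, and both motifs for 27 (65.9%), against 8.61%. In the 100 bases around the start site both were present for 19 (46.3%), against 1.01%. The plot of motif positions counts promoters, not genes: of the 43 promoters of the matched members, 48.8% had a CHR within the first 50 transcribed bases, against 2.46% of all 32851 promoters. A CCAAT box lay in the 50 bases before the start site in 51.2% of member promoters, against 9.03% of all, and from 100 to 51 bases before it in 48.8%, against 12.5% of all.

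**Figure D1:**
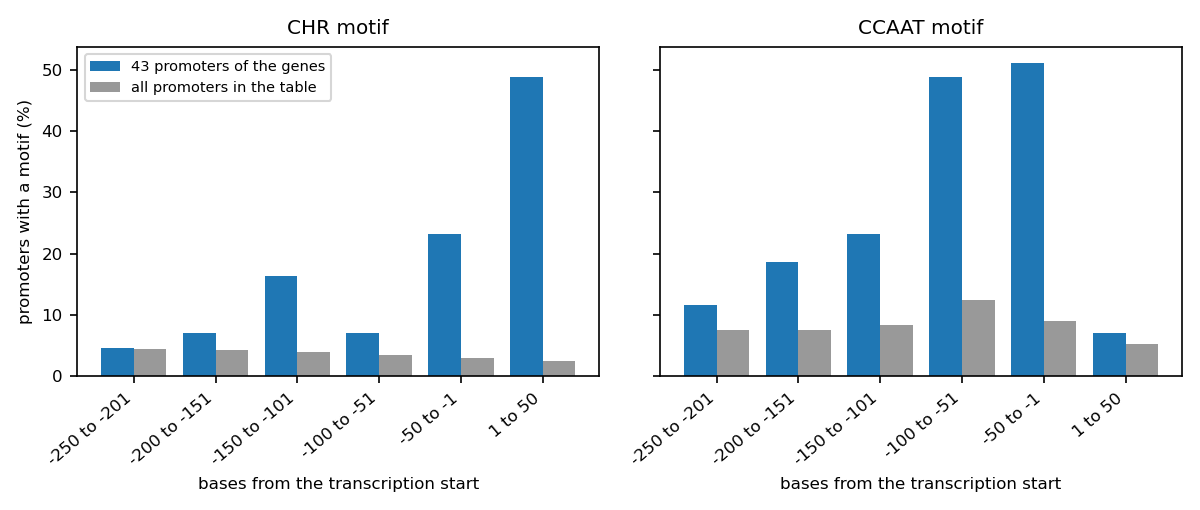
Share of promoters with a CHR or CCAAT match in bins along the window (x axis, bases from the start site; y axis, percent of promoters), for the 43 promoters of the matched members (blue) and for all promoters of the table (grey). The members' CHR matches gather in the first 50 transcribed bases (48.8%) and their CCAAT matches in the 100 bases before the start site.

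The same motifs were counted in other genes of the cycle. Among 59 matched mitosis genes outside the 49, the CHR was present for 36 (61.0%) and a CCAAT box for 39 (66.1%). Among 29 matched S phase genes the CHR was present for 4 (13.8%) and a CCAAT box for 17 (58.6%). The E2F motif (TTTCGCGC, TTTGGCGC or TTTCCCGC) was present for 12 of these 29 (41.4%), against 2.12% of all genes. Among the members the E2F motif was present for 3 (7.32%): Cdk1, the kinesin Kif15 and the condensin subunit Ncapd2. A match is only a run of letters. CHR and CCAAT matches can overlap: in Cdca8 a CHR at 14 to 19 and a CCAAT box at 19 to 23 share base 19. A CCAAT box followed by its own reverse complement counts on both strands.

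In 12 of the 41 matched members the last 100 bases held no CHR letters: Mki67, Ccnb1, Birc5, Cenpe, Mad2l1, Kif2c, Nusap1, Nuf2, Knstrn, Cks2, Pttg1 and Ncapd2. The promoters of 3 of them are printed for contrast. Cks2 and Pttg1 are the members not at their highest in cluster 7, as described below, and Pttg1 was added after its values were seen. Birc5 is the member of the passenger complex with the highest level.
Cks2: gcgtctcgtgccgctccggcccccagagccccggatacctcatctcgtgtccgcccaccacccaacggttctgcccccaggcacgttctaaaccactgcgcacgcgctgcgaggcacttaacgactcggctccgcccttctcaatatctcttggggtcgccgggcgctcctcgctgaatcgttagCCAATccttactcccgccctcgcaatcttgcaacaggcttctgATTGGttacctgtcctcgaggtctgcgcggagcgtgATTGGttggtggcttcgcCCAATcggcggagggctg
Pttg1: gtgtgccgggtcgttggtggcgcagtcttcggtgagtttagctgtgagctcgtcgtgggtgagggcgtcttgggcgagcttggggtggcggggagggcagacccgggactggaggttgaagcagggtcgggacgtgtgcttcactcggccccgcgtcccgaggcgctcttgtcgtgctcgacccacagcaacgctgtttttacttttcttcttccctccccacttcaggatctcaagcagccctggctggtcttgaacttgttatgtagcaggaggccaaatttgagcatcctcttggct
Birc5: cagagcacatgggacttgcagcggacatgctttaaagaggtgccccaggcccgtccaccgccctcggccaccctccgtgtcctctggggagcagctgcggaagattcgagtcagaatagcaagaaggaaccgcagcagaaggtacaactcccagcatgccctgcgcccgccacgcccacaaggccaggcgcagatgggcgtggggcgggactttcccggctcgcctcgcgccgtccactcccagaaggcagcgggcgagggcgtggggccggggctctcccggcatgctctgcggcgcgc
Cks2 (chr13:51644982-51645281 (plus strand)) has 4 CCAAT matches and no CHR in the 300 bases, Pttg1 (chr11:43425932-43426231 (minus strand)) has neither motif, and Birc5 (chr11:117848987-117849286 (plus strand)) has neither. Birc5 was nevertheless among the members with the largest excess in cluster 7, with a log2 difference of 3.51.

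The members were highest in cluster 7 with few exceptions. Their highest level fell in cluster 7 for 47 of 49, where 12% of the 11865 genes that reached 0.1 per 10000 in any cluster had theirs. All 49 members reached that level. Taking the log2 of the value plus 0.1 over the mean of the other 11 clusters plus 0.1, 48 of 49 were at least 2-fold higher in cluster 7, against 4.80% of all genes. The median log2 difference was 2.39 over the members and -0.07 over all genes. With 1 added in place of 0.1, which damps low genes, 18 of 49 reached 2-fold, against 0.590% of all genes. Against the highest of the other clusters, 34 of 49 were still at least 2-fold higher in cluster 7, against 0.885% of all genes, with a median of 1.31. The cells of cluster 7 were also the deepest, and the part of depth in these levels was not tested.

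**Figure D2:**
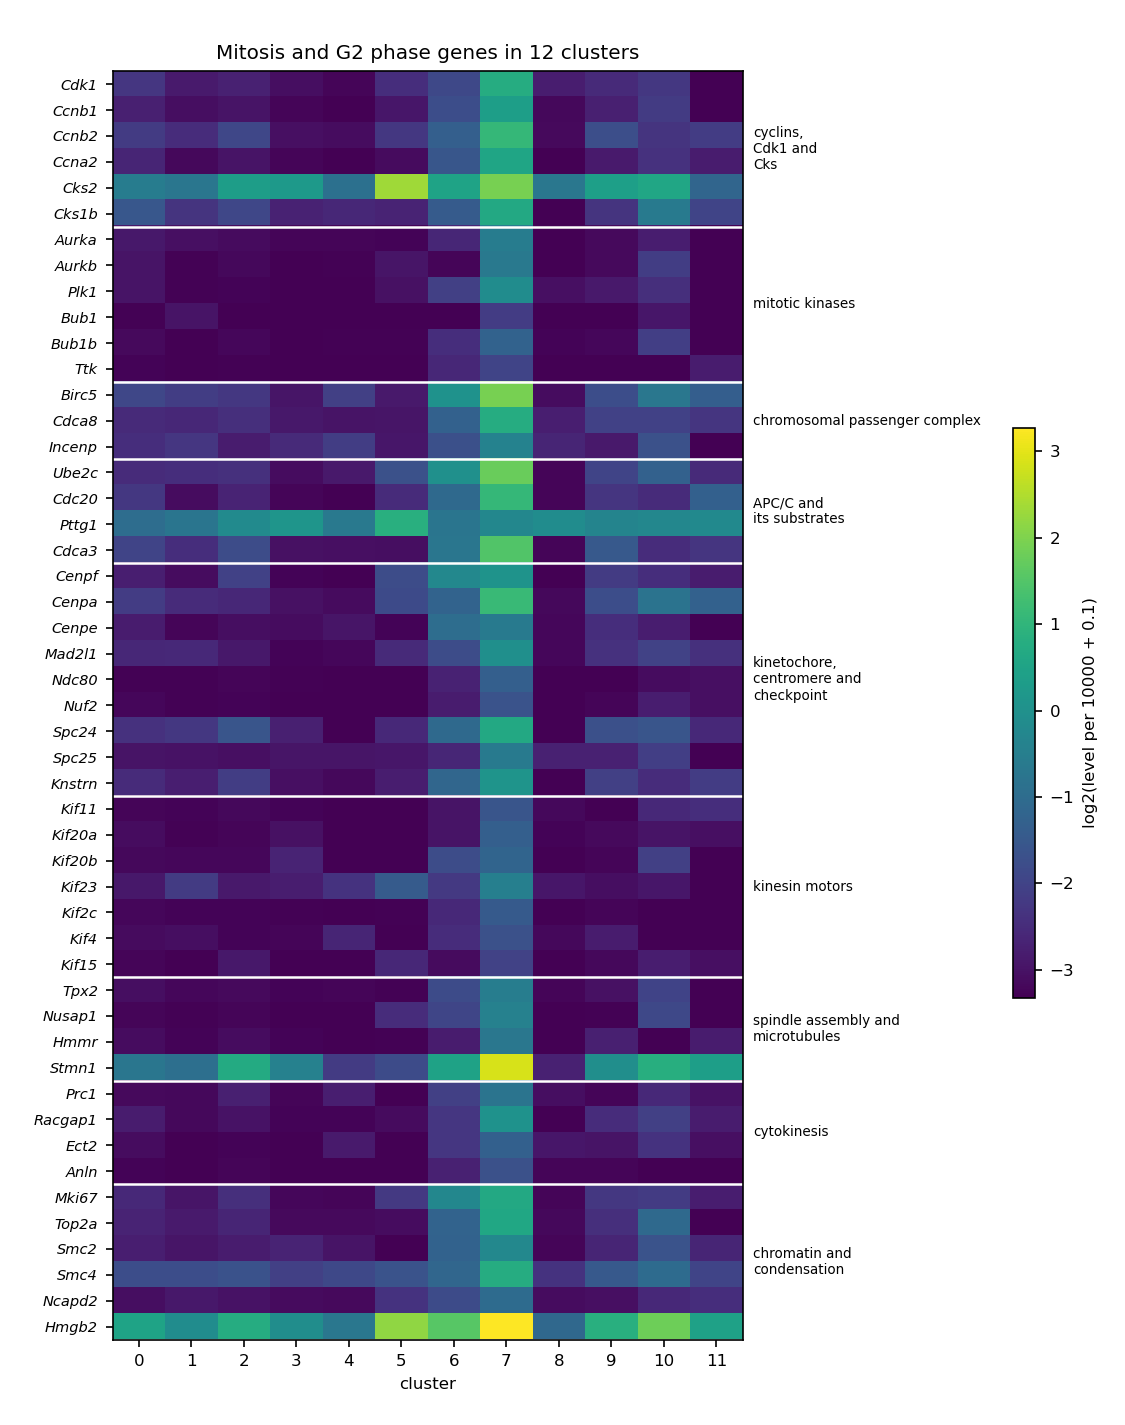
Level of each of the 49 members (rows, by role) in each of the 12 clusters (columns), on a colour scale of log2(value + 0.1 per 10000). The column of cluster 7 is the brightest in every row except those of Cks2 and Pttg1, which peak in cluster 5.

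The summed level of all 49 members was 64.9 per 10000 (63.9 to 65.8) in cluster 7, 16.5 (15.4 to 17.7) in cluster 6, with 13.5 and 13.4 in clusters 5 and 10. It was lowest in cluster 8, at 2.33 (2.03 to 2.66), where 5 of 8 absorptive colonocyte markers were highest and 23 of 49 members were 2-fold or more under the mean of the rest (13.5% of all genes). A few abundant members carried much of the low end: Hmgb2, Cks2, Stmn1 and Pttg1 had the highest means over clusters. Without them the other 45 summed to 43.6 (42.8 to 44.4) in cluster 7, 10.5 (9.62 to 11.5) in cluster 6, 6.10 (5.10 to 7.24) in cluster 10, with 3.14 in cluster 9 and 2.52 (1.83 to 3.39) for cluster 11. Cluster 5 then stood at 2.24 (1.77 to 2.79), and its interval overlapped those of clusters 0, 1, 2 and 11. The lowest sums were those of cluster 4 (1.03), cluster 3 (0.838) and cluster 8 (0.573, 0.429 to 0.748). Weighted by cell number, cluster 7 held 59.2% of the summed level of the 45 genes, cluster 6 held 14.5% and the goblet-like cluster 0 held 6.44%.

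**Figure D3:**
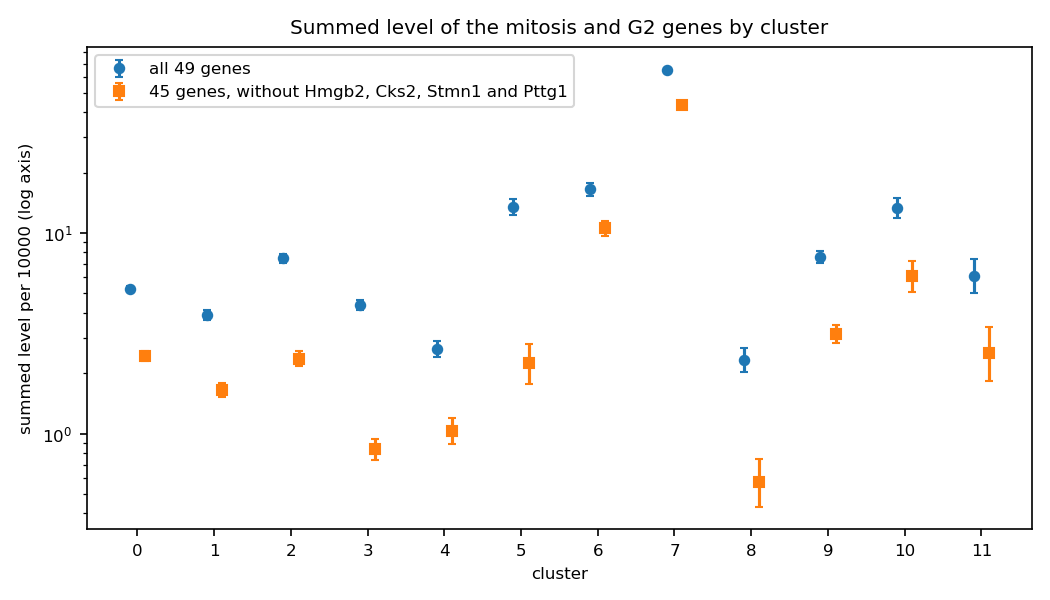
Summed level per 10000 UMIs (y axis), on a log axis, of all 49 members and of the 45 without Hmgb2, Cks2, Stmn1 and Pttg1, in each cluster (x axis), with Poisson 95% intervals that cover counting error only. Cluster 7 is highest in both sums, and cluster 5 drops from 13.5 to 2.24 when the 4 genes are left out.

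Cyclins, Cdk1 and its partners summed to 11.3 per 10000 in cluster 7 and 2.49 in cluster 6. Cdk1, the kinase that drives mitosis, was at 1.59 (1.44 to 1.74) in cluster 7. In the other clusters its lowest level was 0, its median 0.053 and its highest 0.169, in cluster 6, so cluster 7 stood apart by 9.37-fold. Cyclin B2 (Ccnb2) was at 1.99 (1.83 to 2.16) in cluster 7, with a median of 0.11 and a highest value of 0.297 elsewhere. Cyclin B1 (Ccnb1) was at 1.19 (1.07 to 1.33), with 0.194 the next, and cyclin A2 (Ccna2), which acts from S phase to early mitosis, was at 1.37 (1.23 to 1.51), with 0.238 the next. Cluster 6 was second for each of the 3 cyclins. Cks1b, 1 of 2 small Cdk-binding proteins, was at 1.48 (1.34 to 1.63) in cluster 7 and 0.543 in cluster 10, and was listed at 0 in cluster 8. The other, Cks2, followed a different order and is described below.

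The mitotic kinases summed to 2.54 per 10000 in cluster 7 and 0.36 in cluster 6. Plk1, which acts at centrosomes, kinetochores and the midbody, was at 0.824 (0.722 to 0.937) in cluster 7 and at most 0.136 elsewhere. Aurora A (Aurka), the centrosomal and spindle pole kinase, was at 0.579 (0.494 to 0.675), with 0.0632 the next. Aurora B (Aurkb), the kinase of the passenger complex, was at 0.538 (0.456 to 0.631) in cluster 7, and clusters 10 and 6 had 0.129 and 0.00624. Cluster 7 held 79.4% of the cell-weighted Aurkb level, the largest share of any member. The checkpoint kinases Bub1, Bub1b and Ttk were at 0.124 (0.0862 to 0.172), 0.318 (0.256 to 0.391) and 0.155 (0.112 to 0.208) in cluster 7. Bub1 and Ttk were each listed at 0 in 7 of 12 clusters.

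The chromosomal passenger complex corrects chromosome attachment and later marks the cleavage plane. Its survivin subunit Birc5 was at 3.67 (3.45 to 3.90) in cluster 7 and 0.921 in cluster 6, with a median of 0.136 over the other clusters. Borealin (Cdca8) was at 1.61 (1.46 to 1.76) in cluster 7 and 0.315 in cluster 6. The scaffold Incenp was less steep, at 0.664 (0.572 to 0.766) in cluster 7 and 0.208 in cluster 10.

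The anaphase-promoting complex was represented by its enzyme Ube2c, its activator Cdc20 and its substrates Cdca3 and securin (Pttg1). Ube2c was at 3.33 (3.12 to 3.55) in cluster 7, 0.892 in cluster 6 and as low as 0.00588 elsewhere. Its log2 difference of 3.63 was the largest among the members. Cdc20 was at 2.01 (1.85 to 2.18), with 0.382 the next, and Cdca3 at 2.71 (2.53 to 2.91), with 0.503 the next, both in cluster 6. Pttg1, which holds separase inactive until anaphase, did not share this order and is described below.

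Kinetochore, centromere and checkpoint genes summed to 8.01 per 10000 in cluster 7 and 2.56 in cluster 6. Cenpa was at 2.11 (1.95 to 2.29) in cluster 7, with a median of 0.124 and a highest value of 0.468 elsewhere. The Ndc80 complex, which binds microtubule ends, had all 4 of its subunits highest in cluster 7: Spc24 was at 1.47 (1.34 to 1.62), Spc25 at 0.549 (0.466 to 0.642), Ndc80 at 0.299 (0.238 to 0.369) and Nuf2 at 0.223 (0.171 to 0.285). Ndc80 and Nuf2 were listed at 0 in 3 and 4 clusters. The checkpoint protein Mad2l1 was at 0.87 (0.765 to 0.986) and the spindle protein Knstrn at 0.976 (0.865 to 1.10). Cenpf, a matrix protein of the kinetochore, and Cenpe, its kinesin, stood nearest to equal between clusters 7 and 6, at 0.952 against 0.742 and at 0.559 against 0.414.

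The kinesin motors summed to 2.12 per 10000 in cluster 7 and 0.52 in cluster 6. Kif20a, of the central spindle, was at 0.303 (0.242 to 0.374) in cluster 7 and at most 0.0278 elsewhere, a value of about 1 UMI in cluster 6. Kif11, which pushes spindle poles apart, was at 0.236 (0.183 to 0.3), and the depolymerase Kif2c was at 0.264 (0.207 to 0.331). Kif20b, the chromokinesin Kif4 and the spindle motor Kif15 were at 0.337, 0.213 and 0.148. Kif23 was at 0.615 (0.527 to 0.713) in cluster 7 but also at 0.275 in cluster 5 and 0.121 in cluster 1.

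Among spindle factors, Stmn1 (stathmin, which destabilises microtubules) was at 7.25 (6.94 to 7.57) in cluster 7, with a lowest value of 0.0511 in cluster 8, a median of 0.641 and a highest of 1.67 in cluster 10 among the others. Tpx2, which activates Aurora A on the spindle, was at 0.599 (0.512 to 0.696), the microtubule bundler Nusap1 at 0.642 (0.552 to 0.742) and the spindle protein Hmmr at 0.513 (0.433 to 0.603). Hmmr was at most 0.0505 outside cluster 7. Cytokinesis genes summed to 1.93 in cluster 7 and 0.40 in cluster 6. Racgap1 was at 0.929 (0.82 to 1.05), the midzone protein Prc1 at 0.486, the cleavage furrow factor Ect2 at 0.308 and the contractile ring scaffold anillin (Anln) at 0.209. Anln was listed at 0 in 6 clusters.

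Of the chromatin and condensation genes, Mki67 (the Ki-67 antigen) was at 1.47 (1.33 to 1.62) in cluster 7 and 0.726 (0.502 to 1.01) in cluster 6. Its lowest level was 0.00661 and its median outside cluster 7 was 0.0687. Top2a, the topoisomerase that untangles sister chromatids, was at 1.42 (1.28 to 1.56) in cluster 7 and 0.374 in cluster 10. The condensin subunits Smc4, Smc2 and Ncapd2 were at 1.60, 0.752 and 0.391 in cluster 7. Hmgb2 was at 9.59 (9.24 to 9.96) in cluster 7, while clusters 5 and 10 followed with 4.44 and 3.44, and cluster 7 held only 35.0% of its cell-weighted level.

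Cluster 6 came second for 29 of the 47 members that were highest in cluster 7, and with cluster 7 left out it was highest for 29 of 49, against 16.6% of all genes. All 49 members were higher in cluster 7 than in cluster 6, against 44.8% of all genes. The ratio of cluster 6 to cluster 7 was 0.254 (0.236 to 0.273) for the sum of all members and 0.242 (0.220 to 0.264) for the 45. Its median was 0.223 over the members and 1.06 over all genes. The interval of the ratio lay wholly below 1 for 43 of 49 members. Only 3 of 49 members reached 2-fold the mean of the rest in cluster 6 (4.64% of all genes). Cluster 6 differed from cluster 7 in other ways too: its cells were shallower, its mitochondrial share was 8.05% against 2.95%, and it held the plasma cell gene Igkc at 13.8. The part of these in the ratios was not tested.

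The members did not keep 1 ratio between the clusters. The interval lay above the ratio of the 45 genes for 7 members and below it for 3. The ratio was highest for Cenpf, at 0.779 (0.530 to 1.11), Cenpe, at 0.741 (0.437 to 1.19), Pttg1, at 0.669, Kif20b, at 0.563 (0.248 to 1.12), and Mki67, at 0.494 (0.337 to 0.701). Cks2 (0.357) and Hmgb2 (0.299) also lay above it. The ratio was low for Stmn1, at 0.178 (0.135 to 0.230), Cdk1, at 0.107 (0.045 to 0.213), and Aurkb, at 0.012, where the upper bound was 0.172. Across the 48 members with UMIs in cluster 6, the Spearman correlation between the ratio and the length of the longest annotated transcript was 0.37. It was 0.49 across the 33 members with 5 or more UMIs there, and 0.47 across 5769 genes with at least 10 UMIs in cluster 6. The correlation for the members was -0.06, -0.05 and -0.16 when clusters 2, 9 and 0 took the place of cluster 6. It was not computed over all genes for those clusters. These are correlations across genes that share cells and libraries and are given as a description.

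**Figure D4:**
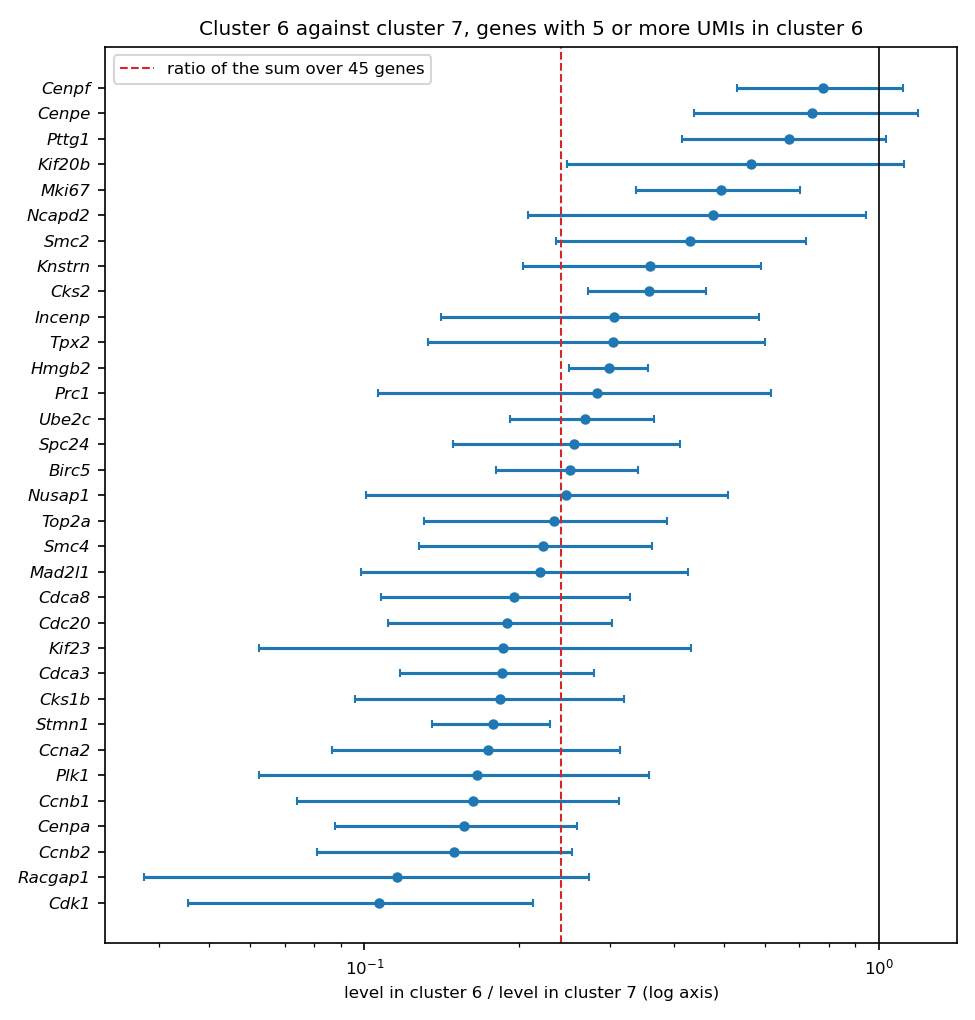
Ratio of the level in cluster 6 to that in cluster 7 (x axis, log) for the 33 members with at least 5 UMIs in cluster 6 (rows), with exact 95% intervals that cover counting error only, the ratio of the 45-gene sum as a dashed line and a ratio of 1 as a solid line. The intervals of Cenpf, Cenpe and Mki67 lie to the right of the dashed line, and those of Cdk1 and Stmn1 to the left.

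Cks2 and Pttg1 were highest in the neutrophil-like cluster 5, as were 8.14% of all genes. Cks2 was at 4.96 (4.25 to 5.75) in cluster 5 and 3.70 (3.48 to 3.93) in cluster 7, with a lowest level of 0.342 in cluster 11. Pttg1 was at 1.70 (1.30 to 2.19) in cluster 5 and, behind it, at 0.995 in cluster 3. Its level in cluster 7 was 0.732 (0.636 to 0.839), and its lowest was 0.414, in cluster 0. Pttg1 was thus present in every cluster, and its log2 difference in cluster 7 was -0.06. Its Pearson correlation with the mean profile of the other members over the 12 clusters was -0.08, while Cks2 had 0.59 and Kif23 0.70. Hmgb2 was second highest in cluster 5. The partners of Cks2 and Pttg1 had few UMIs in the shallow cluster 5: Cdk1 was at 0.0823 (0.0163 to 0.245) there, Ccnb1 at 0.0312, Ccnb2 at 0.110 and Cdc20 at 0.0768. Their medians over the clusters other than 7 were close to these levels, at 0.0532, 0.0276, 0.110 and 0.0746 in that order. A count of 0 allows up to 0.0852 in cluster 5. Weighted by cell number, cluster 5 held 31.2% of the Cks2 level and 20.5% of the Pttg1 level. Among the other members its share ran from 0 to 23.2% (Kif15), with 19.4% for Kif23 and 18.0% for Hmgb2. The Kif15 level in cluster 5, 0.0651, came from 2 UMIs of a single cell. It lay below the 0.0852 that a count of 0 allows in that cluster.

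Because the averages of low genes are sums of single UMIs over cells of known depth, many of them could be traced to single cells. Of 588 averages of the members, 79 were 0 and 164 could be read as whole UMIs in a few cells, of which 70 came from 1 cell. None of cluster 7 could be read this way. In clusters 5, 10 and 11, 4 cells carried 12 or more members each. A cell is known here only by its total UMIs, its list of members is a minimum, and 2 cells of equal total could not be told apart.

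In cluster 10, 1 cell of 20417 UMIs carried 30 of the 49 members with 89 UMIs between them, among them Birc5 (8), Cdca8 (7), Racgap1 (7), Ccnb1 (6), Nusap1 (6), Smc2 (6), Mki67 (4) and Top2a (3). The protease gene Cma1, from the list of mast cell markers, was read in it with 8 UMIs. Cma1 was highest in the goblet-like cluster 0, at 5.04 per 10000, while 4 of the 6 mast cell markers were highest in cluster 10. The histone genes Hist1h2ak, Hist1h2bj and Hist1h2bg with 4 UMIs each were read in no other cell of the cluster. A second cell of cluster 10, of 11837 UMIs, carried 24 members with 60 UMIs, among them Top2a (12), Birc5 (12) and Tpx2 (4). It also held 41 UMIs of the granzyme gene Gzmc, read in no other cell of the cluster, and 5 of the NK cell gene Nkg7. These 2 cells, of 31 in the cluster, held 23.1% and 26.8% of the cluster's 45-gene sum, which was 6.10 with them and 3.27 without them.

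In the enteroendocrine-like cluster 11, 1 of 19 cells, of 25382 UMIs, carried 21 members with 68 UMIs, and 15 of those members were read in no other cell of the cluster. Birc5 (14), Cdc20 (9), Ccnb2 (6) and Knstrn (6) led. The cell held 56.0% of the 45-gene sum of the cluster, which was 2.52 with it and 1.17 without it. It held 5 UMIs of Fcgbp, a goblet cell marker, and 2 of Tyms, a marker of S phase. In the neutrophil-like cluster 5, 1 cell of 14818 UMIs, 10.4 times the median of its cluster, carried 12 members with 30 UMIs, among them Cdca3 (7), Ccna2 (6) and Racgap1 (6). It held 3.30% of the cluster's 45-gene sum, which was 2.24 with it and 2.18 without it. No marker of any cell type list was read in that cell. Markers carried by many cells of a cluster cannot be read this way, so this does not show which type the cell was. Whether such a cell was 1 dividing cell or a droplet with more than 1 cell was not tested.

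**Figure D5:**
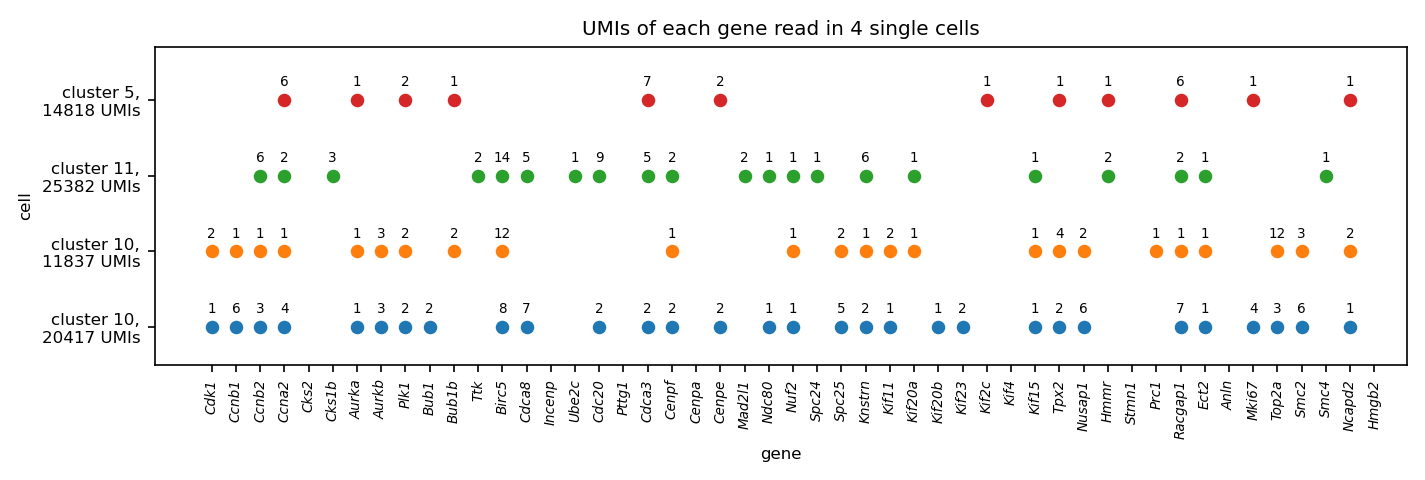
UMIs of each member (x axis, genes by role) read in each of the 4 cells that carried 12 or more members (y axis, cluster and total UMIs of the cell), with the UMI number above each point; an empty place means that no UMI was read, not that there was none. Points are spread over all role groups in the cluster 10 cell of 20417 UMIs. The cluster 10 cell of 11837 UMIs has none for the anaphase-promoting complex and its substrates. Ccna2, Racgap1 and Cdca3 stand out in the cell of cluster 5.

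In clusters 0, 1, 2, 3, 4, 6 and 8 no readable cell held 5 or more members. The averages of only 3, 8, 6, 15, 9, 9 and 22 members could be read in these clusters, in that order. A cell with 5 members could thus not have been found in cluster 0. The count does not show that dividing cells were absent from these clusters. In the colonocyte-like cluster 8, for example, the readable averages came from 28 cells, of which 25 held 1 member and 3 held 2 to 4. Single cells with 5 to 7 members were also read: 2 in cluster 9, and 2 more in cluster 10, of which the cell of 25319 UMIs had 7.

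Most other genes of the cycle were also highest in cluster 7. Of 73 other mitosis genes, 67 were highest in cluster 7. Of the 62 that reached 0.1, 48 reached 2-fold the mean of the rest there, with a median log2 difference of 1.30. The E2 enzyme Ube2s was at 3.64, the checkpoint protein Bub3 at 1.33 and the kinase Pbk at 1.05. Of 38 S phase genes, 36 were highest in cluster 7, and 30 of the 36 with 0.1 or more reached 2-fold the mean of the rest, with a median of 1.73. The summed S phase level was 21.5 in cluster 7, followed by cluster 10 with 10.3 and cluster 6 with 6.30. The 45-gene sum was 2.03 times the S phase sum in cluster 7. It was 1.67, 1.01 and 0.589 times that sum in clusters 6, 5 and 10, with the lowest ratio, 0.29, in cluster 8. For the 73 other mitosis genes the order differed. Their sum was 1.12 times the S phase sum in cluster 7, 1.55 times in cluster 6 and 1.37 times in cluster 8. The highest of these ratios was 1.95, in clusters 4 and 11, and the lowest 0.675, in cluster 10. Cluster 10 was thus above cluster 6 in its S phase sum and below it in its mitosis sum.

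Of 22 regulators of mitotic transcription, 11 were highest in cluster 7 and 3 of the 17 with 0.1 or more reached 2-fold the mean of the rest, with a median of 0.34. Foxm1, the forkhead factor of G2 genes, had a level of 0.153 in cluster 7. Its level in cluster 6, 0.011, lay below the 0.0643 that a count of 0 allows there. Mybl2 (B-Myb) had 0.182 in cluster 7. Histone and high mobility group genes were highest in cluster 7 for 9 of 13, with H2afz at 17.7, and tubulins for 6 of 10, with Tubb5 at 7.30 and Tuba1b at 6.77. The summed tubulin level was higher in cluster 11, at 37.1, than in cluster 7, at 29.1, and 3 tubulins were highest in cluster 11. Of 20 cell cycle inhibitors and G1 cyclins, 4 were highest in cluster 7, where 2 were 2-fold or more over the mean of the rest and 5 were 2-fold or more under it. The inhibitor Cdkn1a (p21) had its lowest level in cluster 7, at 1.11, and was at 6.52 in cluster 8. The counts of these lists at 2-fold or more over the mean stand beside the same 4.80% of all genes. The count under the mean stands beside 7.26%. The counts of genes highest in cluster 7 stand beside 12% of all genes that reached 0.1. These counts of the lists also include genes that stayed under 0.1, so the 2 do not cover the same range of levels.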

How the data were processed

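The values are those the authors deposited: a signal table of mean UMIs per 10000 for each gene and cluster, made with Cell Ranger 3.1.0, Seurat 2.3 and build mm10, per the submitters' processing notes. How cells were filtered and clustered, and how doublets were handled, is not stated in the labels. The labels do not say whether the 2 libraries come from separate animals.

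Cell numbers and UMI totals were recovered from the low values, which are whole UMIs divided by known totals (tolerance 1e-12), and member averages were read as sums of at most 3 cells (4 in small clusters, tolerance 1e-13). Intervals are exact 95% Poisson or Clopper-Pearson intervals. Differences are log2 of the value plus 0.1 over the mean of the other clusters plus 0.1. The steps were tested on simulated data. Alternatives were other pseudocounts, floors, folds, references, scaling and motif windows. Every member may be named, with the 3 highest genes of each other list in cluster 7, a few fixed genes and the 10 genes of most similar profile, of which 1 is not reported here. The members and lists were chosen with earlier results of these data known. Python 3.11.15, numpy 2.4.6, scipy 1.17.1 and pandas 2.3.3 were used.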

Additional observations from a re-analysis of the deposited data

How the results depend on the processing

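The 48 members at least 2-fold higher in cluster 7 became 18 with a pseudocount of 1 (0.590% of all genes then), and their median of 2.39 ran over 0.66 with that pseudocount, 3.44 with 0.01, 2.56 with a floor of 0.5, 1.31 against the highest other cluster, 2.55 against the median of the others, 2.48 without clusters 5 and 6, 2.43 without clusters 5 and 10, and 2.59 rescaled without mitochondrial and ribosomal genes. In cluster 6, the 3 members at least 2-fold higher (4.64% of all genes) became 12 with a pseudocount of 0.01 (13.2% of all genes then). They became 19 against the median of the others (7.91%) and 6 after rescaling (8.15%). In cluster 6 the count was 0 with a pseudocount of 1 (0.169%), against the highest other cluster (0.362%) and at a fold of 4 (0.126%). Its median of 0.32 was 0.062 with a pseudocount of 1, 0.58 with 0.01, -1.71 against the highest other cluster, which reverses it since cluster 7 is that cluster for most members, 0.89 against the median of the others, 0.29 without clusters 5 and 10, and 0.40 after rescaling. The summed level rose on rescaling to 87.4 in cluster 7 and 22.4 in cluster 6, and was 43.6 and 10.5 without the 4 highest members. The CCAAT share was 53.7% in the last 100 bases. The log2 difference of Cks2 in cluster 7 was -0.41 against the highest other cluster. Depth limits the shallow clusters 5 and 6 and the small clusters 10 and 11 most. Leaving out each library was not run and no paired analysis was possible because the columns do not separate the libraries.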

Other observations

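The genes outside the members whose profile over the 12 clusters was most like the members' mean (Pearson r of log2 values, 9498 genes compared) were Tacc3, a spindle protein (0.98), Tk1, the thymidine kinase of S phase (0.98), Cenph (0.97), the kinetochore scaffold Casc5 (0.97) and the kinesin Kifc1 (0.97). Melk, Pbk, Shcbp1 and Uhrf1 followed, with r = 0.96 for Uhrf1. The points are clusters of the same 2 libraries, and the values are a description.

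Cyclin D1 (Ccnd1), which acts in G1, was highest in cluster 6, at 1.37, and stood at 0.877 in cluster 7. The stem cell gene Lgr5 was at 0.117 in cluster 6 and 0.115 in cluster 7. Of 7 crypt stem cell markers, 4 were highest in cluster 7 and 3 in cluster 6.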
